A study of Mus musculus with 7 samples.

Results

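The 10 genes described here encode heat shock proteins of the cytosol and the mitochondria, followed in pancreatic islets of db/db mice that overexpressed adipsin. They are Hspa1a, Hspa1b, Hspa8, Dnajb1, Dnaja1, Hsph1, Hsp90aa1, Hspb1, Hspd1 and Hspe1, chosen by symbol from the 51912 gene identifiers in the count table. All 10 were among the 16504 genes that passed the filter on low counts. The mice of both groups were db/db, a genotype that lacks a functional leptin receptor and develops obesity and diabetes. A group of 3 mice had received an adeno-associated virus (AAV) encoding adipsin, and a group of 4 mice a vector of the same kind encoding green fluorescent protein (GFP). Islets were isolated 4 weeks after the vector and held in culture for 12 hours before RNA extraction, so every library carries both the isolation and the culture. Each library came from a separate mouse, and no library of uninjected mice or of mice with the leptin receptor was analysed here. The sources used here give neither the age and sex of the mice nor the promoter of the vectors. Whether chaperone transcripts differed between the adipsin and the GFP vector is the question the design allows, and circulating adipsin was not measured in the files used here.

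Heat shock proteins bind unfolded stretches of other proteins and, in most families, use ATP to help them fold, cross membranes or be degraded. In a stressed cell, heat shock factor 1 is freed from its chaperones and binds repeats of the letters GAA and TTC near the start of its target genes. The inducible members of the family rise within hours of heat, handling or protein damage, whereas the constitutive members serve the daily load of protein folding. Proinsulin, the main product of beta cells, is folded in the endoplasmic reticulum (ER) by a separate set of chaperones.

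Total counts ran from 29601707 to 43997400 per library, of which the 10 genes together took 0.137% to 0.159%. Cfd, the gene of adipsin, had 3965, 839 and 1481 counts in AAV-Adipsin libraries 1, 2 and 3, against 1, 0, 0 and 0 counts in AAV-GFP libraries 1 to 4. By their descriptions, 2 libraries are named by treatment (AAV-Adipsin 1 and AAV-GFP 1) and 5 by a db number, a difference whose meaning the labels do not state. Both vectors occur in both styles of description, and many genes followed the style, so the comparison of the vectors is also given within it. Markers of beta cells, the most abundant islet cell type, summed to between 163874 and 203918 CPM (counts scaled by library total) in a library. Markers of acinar cells, the enzyme-secreting cells around islets, summed to between 2753 and 18204 CPM over the 12 of 13 that passed the filter, and Amy2a5 had no count. In bulk tissue, fewer cells of a type and less RNA per cell cannot be told apart.

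Upstream sequences are shown first for Hspa1a and Hspa1b, the stress-inducible HSP70 genes, because the likeness of these copies bears on how their counts can be read. They lie 9952 bases apart on the minus strand of chromosome 17, at chr17:34969190-34972156 and chr17:34956436-34959238 in GRCm38. The 250 bases before their starts, printed 5′ to 3′ on the minus strand from RefSeq for GRCm38.p6 (chr17:34972157-34972406 and chr17:34959239-34959488), are given here with matches to GAANNTTC in capitals.
Hspa1a: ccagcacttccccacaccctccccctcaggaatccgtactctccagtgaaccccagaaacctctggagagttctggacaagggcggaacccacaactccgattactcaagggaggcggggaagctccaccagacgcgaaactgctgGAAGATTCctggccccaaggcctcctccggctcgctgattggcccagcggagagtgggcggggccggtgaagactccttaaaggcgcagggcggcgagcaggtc
Hspa1b: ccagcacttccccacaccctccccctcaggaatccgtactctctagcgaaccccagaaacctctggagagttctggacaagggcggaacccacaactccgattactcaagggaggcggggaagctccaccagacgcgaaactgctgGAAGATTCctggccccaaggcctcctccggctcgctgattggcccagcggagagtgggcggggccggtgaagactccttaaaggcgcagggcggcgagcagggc
Of these 250 positions, 247 were identical. The GAANNTTC match stood at the same place in both, from -104 to -97 relative to the start. Their annotated transcripts, of 2967 and 2803 bases, matched at 93.6% of aligned bases, with a longest identical run of 638 bases. Reads from such runs could be split between the copies or dropped in counting, so their separate levels are uncertain and their sum is given beside them.

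Denser repeats stood near the starts of Hspe1, Hsph1 and Hspb1, and 30 bases of each are shown to make the arrangement visible, 5′ to 3′ on the gene's strand with matches to GAANNTTC or TTCNNGAA in capitals. The Hspe1 stretch is chr1:55088053-55088082 on the plus strand, the Hsph1 stretch chr5:149636279-149636308 on the minus strand, and the Hspb1 stretch chr5:135887801-135887830 on the plus strand, all from RefSeq for GRCm38.p6.
Hspe1: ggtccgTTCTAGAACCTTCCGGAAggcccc
Hsph1: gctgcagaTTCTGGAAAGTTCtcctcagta
Hspb1: aGAAGTTTCcagatgggggcaGAACCTTCc
Overlapping matches TTCTAGAA, GAACCTTC and TTCCGGAA make up the capitals of Hspe1, which lie within -95 to -66 relative to its annotated start. Read on the other strand, the same bases are the match of Hspd1. That match runs from -144 to -127 relative to an annotated start of that gene at position 55087932. The gene body given below for Hspd1, chr1:55077835-55088243 on the minus strand, starts farther upstream, so the match lies inside it. All 30 bases of the Hspe1 and Hsph1 stretches lie in annotated exons, and none of the Hspb1 stretch do. The Hsph1 stretch covers bases 8 to 37 counted from an annotated start at position 149636315, and the Hspb1 stretch bases -118 to -89. Windows of 300 bases, 250 before and 50 after a start, were available for 8 of the 10 genes, in 13 windows, and not for Hspa8 and Hsp90aa1. A match to GAANNTTC or TTCNNGAA, each of which is its own reverse complement, occurred in 8 of the 13 windows, from 7 of these 8 genes, all but Dnajb1, and in 15.1% of all 32851 windows. The longer GAANNTTCNNGAA or TTCNNGAANNTTC, searched on both strands, occurred in 4 of the 13 windows, those of Hspd1, Hspe1 and Hsph1, and in 0.603% of all windows. These windows are not independent. Hspd1 and Hspe1 share the same bases, and the Hsph1 windows, from starts at positions 149636336 and 149636315, hold the same match. A match describes the letters of a window and does not show that a factor binds there.

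Per length of annotated exons, Hspa8 and Hsp90aa1 had the highest levels of the family and the inducible HSP70 genes the lowest. Mean levels over the 7 libraries were 148 ± 10.4 RPKM (reads scaled to exon length and library total) for Hspa8, 105 ± 6.01 RPKM for Hsp90aa1 and 58.5 ± 3.50 RPKM for Hspd1 (SD, n = 7). They were 28.2 ± 4.29 RPKM for Hspe1, 18.2 ± 2.17 RPKM for Hsph1, 13.0 ± 1.33 RPKM for Dnajb1, 10.1 ± 0.649 RPKM for Dnaja1 and 9.98 ± 4.01 RPKM for Hspb1. At the low end, Hspa1b averaged 1.24 ± 0.817 RPKM and Hspa1a 0.685 ± 0.490 RPKM. Hspa8 exceeded 98.8% of all genes tested in mean RPKM, and Hspa1a exceeded 22.2%. From Hspa8 down to Dnaja1, neighbours in this order did not overlap over the 7 libraries, although the lowest Hsph1 level, 15.8 RPKM, was only just above the highest Dnajb1 level, 15.7 RPKM. Hspb1 ran from 6.29 to 17.5 RPKM and overlapped Dnaja1, Dnajb1 and Hsph1, and the ranges of Hspa1a and Hspa1b overlapped each other. The order depends on the length of all annotated exons together, which was 8629 bases for Dnaja1 and 3204 bases for Dnajb1. Without scaling to length, Dnaja1 averaged 87.5 CPM and Dnajb1 41.6 CPM. Which transcript forms were present was not examined.

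**Figure D1:**
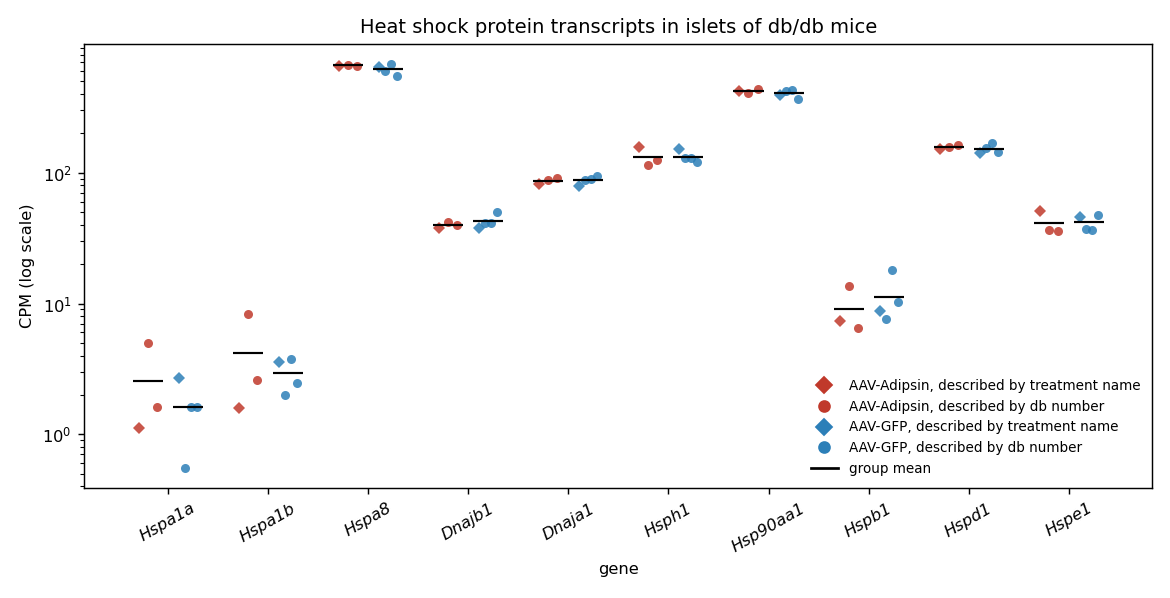
Level of each of the 10 heat shock protein genes in each library in CPM on log axes, with 3 AAV-Adipsin libraries left of 4 AAV-GFP libraries, diamonds for libraries described by treatment name and circles for those described by db number. The libraries of the 2 vectors overlap for every gene, and AAV-Adipsin 2 stands highest for Hspa1a (4.98 CPM) and Hspa1b (8.34 CPM).

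None of the 10 genes passed edgeR's quasi-likelihood test between AAV-Adipsin and AAV-GFP islets. With Benjamini-Hochberg adjustment over all genes, the adjusted p was 1.00 for each, and the log2 fold changes ran from -0.29 to 0.64. Across all genes, 0.00606% passed the threshold of 0.05, which was 1 gene of 16504, Cfd. At a log2 fold change of 12.4, Cfd had an adjusted p of 0.0420 by edgeR, close to the threshold. Smaller differences could therefore go uncalled. An unadjusted p under 0.05 was found for 1.16% of all genes, among them none of the 10. DESeq2 and limma-voom also called 0 of the 10. The libraries of the 2 vectors overlapped for all 10 genes. Over all genes only 2.73% did not overlap, so overlap in all 10 is near the share of all genes. A p above the threshold does not show that levels were equal, so the interval of each difference is given with it. This fit has no term for the style of description, so its intervals include any spread between the styles. With such a term, 0 of the 10 passed as well.

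Hspa1a and Hspa1b, which encode the HSP70 proteins induced by heat and protein damage, had the widest differences between libraries. Hspa1a had 1.12, 4.98 and 1.63 CPM in AAV-Adipsin islets, against 2.71, 0.552, 1.61 and 1.62 CPM in AAV-GFP islets. Hspa1b had 1.58, 8.34 and 2.60 CPM in AAV-Adipsin islets, against 3.58, 1.98, 3.79 and 2.45 CPM in AAV-GFP islets. Both were highest in AAV-Adipsin 2, and the other AAV-Adipsin libraries lay within or below the AAV-GFP range. The log2 fold change of Hspa1a was 0.64 (SE 0.60, 95% interval -0.73 to 2.02), and without AAV-Adipsin 2 it was -0.25. That of Hspa1b was 0.49 (SE 0.52, 95% interval -0.71 to 1.68), and without AAV-Adipsin 2 it was -0.49. Counts behind these values were low, from 17 (95% exact Poisson interval 9.90 to 27.2, counting error only) in AAV-GFP 2 to 157 (133 to 184) in AAV-Adipsin 2 for Hspa1a.

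Summed over both copies, which removes the question of how reads were split between them, inducible HSP70 had 2.70, 13.3 and 4.23 CPM in AAV-Adipsin islets. The sum was 6.29, 2.53, 5.40 and 4.07 CPM in AAV-GFP islets. Again AAV-Adipsin 2 was alone above the other 6 libraries, and the groups overlapped. Means were 6.75 ± 5.74 CPM over the 3 AAV-Adipsin libraries and 4.58 ± 1.64 CPM over the 4 AAV-GFP libraries (SD). The difference of mean log2 values was 0.30, with an exact two-sided permutation p of 0.629 over the 35 divisions of 7 libraries into 3 and 4, whose smallest possible p is 0.0571. Without AAV-Adipsin 2 the difference was -0.36. The same library had the highest summed macrophage markers, all 10 of 10 tested, which ran from 141 to 316 CPM in AAV-Adipsin islets and from 126 to 197 CPM in AAV-GFP islets. It also had the highest summed duct markers, all 8 of 8 tested, which ran from 1748 to 2785 CPM in AAV-Adipsin islets and from 1840 to 2334 CPM in AAV-GFP islets. For no other cell type examined was it the highest library. Acinar markers summed to 13165 CPM in it and 18204 CPM in AAV-GFP 3. Endothelial markers summed to 604 CPM in it and 645 CPM in AAV-GFP 4, and stellate cell and fibroblast markers to 218 and 360 CPM. The part of other cell types in its HSP70 level was not tested.

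Within the treatment-named pair, the log2 CPM difference of AAV-Adipsin minus AAV-GFP was -1.24 for Hspa1a, whereas it was 1.29 among the db-numbered libraries. For Hspa1b it was -1.15 in the treatment-named pair and 0.81 among the db-numbered libraries. Hsph1 (0.06 in the pair, -0.08 among the db-numbered libraries), Dnajb1 (0.02, -0.12), Dnaja1 (0.06, -0.02) and Hspe1 (0.14, -0.14) also had opposite directions, with smaller values. The directions were the same for Hspb1 (-0.24, -0.25), Hspd1 (0.10, 0.05), Hsp90aa1 (0.10, 0.06) and Hspa8 (0.05, 0.13). The difference of the differences was tested for every gene as an interaction of vector and style. In edgeR its log2 estimate was -2.65 for Hspa1a (unadjusted p = 0.0553) and -2.16 for Hspa1b (unadjusted p = 0.0665), with unadjusted p from 0.265 to 0.987 for the other 8 genes, and the Benjamini-Hochberg adjusted p was 1.00 for all 10. No gene passed this test after adjustment (0.0%), and 0.818% of genes, 135 in all, had an unadjusted p under 0.05. The pair holds a single library per vector, so its spread is assumed to be that of the db-numbered libraries.

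Hspa8, the constitutive HSP70 of the cytosol that also strips clathrin coats from vesicles, was the most highly expressed of the family and varied little. It had 662, 673 and 656 CPM in AAV-Adipsin islets, against 641, 602, 678 and 554 CPM in AAV-GFP islets. The AAV-Adipsin libraries lay close together above all AAV-GFP libraries but AAV-GFP 3. The log2 fold change was 0.10 (SE 0.09, 95% interval -0.10 to 0.31; unadjusted p = 0.292 by edgeR).

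Dnajb1 and Dnaja1 are J-domain co-chaperones, which bring substrates to HSP70 and start its ATPase cycle, and Dnajb1 is itself induced by heat. Dnajb1 (chr8:83608193-83612653, plus strand) had 38.0, 42.3 and 39.5 CPM in AAV-Adipsin islets, against 37.5, 41.6, 41.7 and 50.2 CPM in AAV-GFP islets. Dnaja1 had 82.1, 87.4 and 91.5 CPM in AAV-Adipsin islets, against 78.8, 87.5, 90.1 and 95.2 CPM in AAV-GFP islets. For both genes AAV-GFP 4 was highest, AAV-GFP 1 lowest and the groups overlapped throughout. The log2 fold changes were -0.10 (SE 0.11, 95% interval -0.34 to 0.15) for Dnajb1 and -0.01 (SE 0.09, 95% interval -0.21 to 0.18) for Dnaja1. Dnaja1, whose gene body is chr4:40722150-40737149 on the plus strand, overlaps Smu1 on the opposite strand over 608 bases. Smu1 had 20294 counts over all libraries against 22041 for Dnaja1. Gm6297, also on the opposite strand, overlaps Dnaja1 over 249 bases and had 595 counts. With the strand setting of the counting not given, reads of the shared bases cannot be assigned with certainty.

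Hsph1, an HSP110 protein that exchanges the nucleotide on HSP70 and helps to dissolve aggregates, had nearly equal means under both vectors. It had 157, 115 and 126 CPM in AAV-Adipsin islets, against 151, 129, 130 and 120 CPM in AAV-GFP islets. In each group library 1, the one described by treatment name, was highest. Group means were 133 ± 22.2 CPM over the 3 AAV-Adipsin libraries and 133 ± 13.0 CPM over the 4 AAV-GFP libraries (SD), with a log2 fold change of -0.0012 (95% interval -0.28 to 0.28). With a term for description style the log2 fold change was -0.03 (SE 0.07), against an SE of 0.12 without that term.

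Hsp90aa1 encodes the inducible isoform of cytosolic HSP90, a chaperone of kinases and steroid receptors, and Hsp90ab1 the constitutive isoform. Hsp90aa1 had 425, 409 and 440 CPM in AAV-Adipsin islets, against 396, 424, 428 and 370 CPM in AAV-GFP islets. The lowest libraries, AAV-GFP 4 and AAV-GFP 1, belonged to AAV-GFP, and the others were interleaved. The log2 fold change was 0.07 (SE 0.08, 95% interval -0.12 to 0.26). As a ratio of CPM, Hsp90aa1 to Hsp90ab1 was 0.254, 0.256 and 0.282 in AAV-Adipsin islets, against 0.259, 0.269, 0.267 and 0.244 in AAV-GFP islets. Mean ratios were 0.264 ± 0.0155 over the 3 AAV-Adipsin libraries and 0.260 ± 0.0114 over the 4 AAV-GFP libraries (SD), with an exact two-sided permutation p of 0.743.

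Hspb1, a small heat shock protein that holds unfolded proteins without using ATP and binds actin filaments, varied 2.78-fold between the lowest and highest libraries, next to 9.02-fold for Hspa1a and 5.27-fold for Hspa1b. It had 7.39, 13.6 and 6.48 CPM in AAV-Adipsin islets, against 8.76, 7.63, 18.0 and 10.2 CPM in AAV-GFP islets. AAV-GFP 3 and AAV-Adipsin 2 were highest, and the groups overlapped. The log2 fold change was -0.29 (SE 0.35, 95% interval -1.10 to 0.52), and it was 0.05 without AAV-GFP 3. These 2 libraries also had the highest summed acinar markers, at 18204 CPM in AAV-GFP 3 and 13165 CPM in AAV-Adipsin 2, against 2753 to 9439 CPM in the other 5. By vector the acinar sum ran from 3448 to 13165 CPM in AAV-Adipsin islets and from 2753 to 18204 CPM in AAV-GFP islets. The match with acinar markers went no further, as AAV-GFP 4, next in Hspb1 at 10.2 CPM, had the lowest acinar sum, 2753 CPM. Summed duct markers were highest in AAV-Adipsin 2 (2785 CPM), AAV-GFP 4 (2334 CPM) and AAV-GFP 3 (2267 CPM), the libraries with the most Hspb1. The other libraries had duct sums of 1748 to 2035 CPM. Whether acinar or duct cells contributed to the Hspb1 level was not tested.

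Hspd1 and Hspe1 encode HSP60 and HSP10, the barrel and the lid of the chaperonin that folds proteins inside mitochondria. They are transcribed away from each other from a shared start region on chromosome 1, with gene bodies at chr1:55077835-55088243 on the minus strand and chr1:55088132-55091307 on the plus strand that overlap by 112 bases. Hspd1 had 153, 159 and 162 CPM in AAV-Adipsin islets, against 142, 155, 168 and 144 CPM in AAV-GFP islets. Hspe1 had 50.8, 36.8 and 35.9 CPM in AAV-Adipsin islets, against 46.1, 37.2, 36.6 and 47.6 CPM in AAV-GFP islets. Hspd1 was lowest in AAV-GFP 1 and AAV-GFP 4, and Hspe1 was split into separate levels, with AAV-Adipsin 1, AAV-GFP 1 and AAV-GFP 4 at 46.1 CPM or more and the other libraries at 37.2 CPM or less. The log2 fold changes were 0.05 (SE 0.08, 95% interval -0.14 to 0.24) for Hspd1 and -0.02 (SE 0.15, 95% interval -0.37 to 0.32) for Hspe1.

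As a ratio of CPM, Hspe1 to Hspd1 was 0.333, 0.232 and 0.222 in AAV-Adipsin islets, against 0.324, 0.240, 0.218 and 0.331 in AAV-GFP islets. The ratio of these divergent neighbours differed 1.52-fold between the lowest and highest libraries, and AAV-Adipsin 1, AAV-GFP 1 and AAV-GFP 4 again stood above the rest. Mean ratios were 0.262 ± 0.0613 over the 3 AAV-Adipsin libraries and 0.278 ± 0.0575 over the 4 AAV-GFP libraries (SD), with an exact two-sided permutation p of 0.80. Summed beta cell markers were highest in the same libraries, at 203918 CPM in AAV-Adipsin 1, 192169 CPM in AAV-GFP 1 and 202961 CPM in AAV-GFP 4, and between 163874 and 176387 CPM in the other 4. That relation was seen after the values were known, and its part in the ratio was not tested. Annotated pseudogenes of the pair had few reads of their own, with 31 counts over 6 rows for Hspe1 and 234 counts over 4 rows for Hspd1, against 10560 and 39163 counts of the genes.

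**Figure D2:**
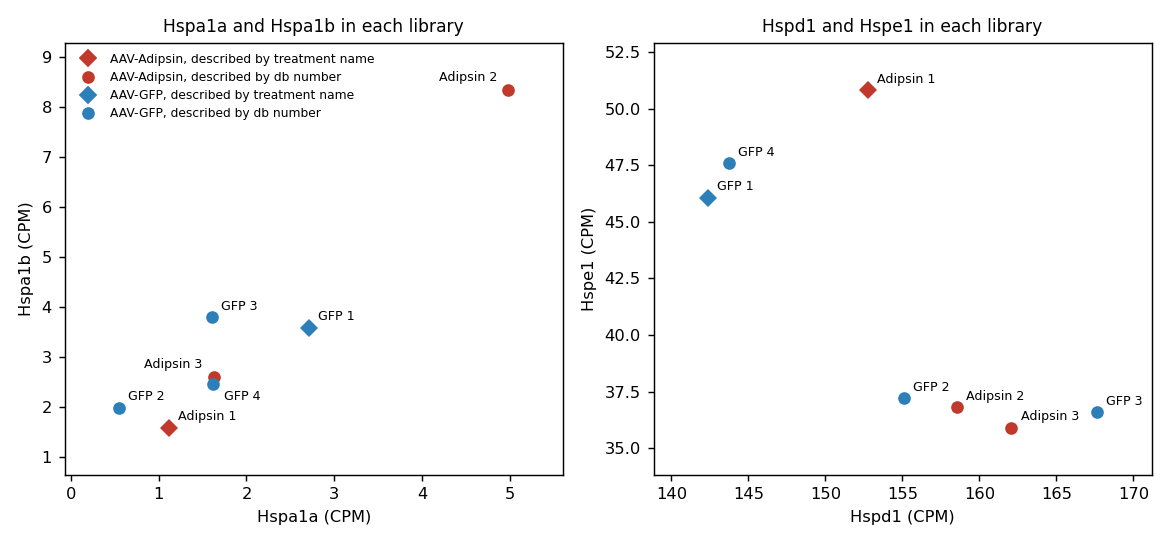
Left, Hspa1a against Hspa1b, and right, Hspd1 against Hspe1, in CPM with a point per library, AAV-Adipsin in red and AAV-GFP in blue, diamonds for treatment-named and circles for db-numbered libraries. AAV-Adipsin 2 stands apart on the left at 4.98 and 8.34 CPM, and on the right AAV-Adipsin 1, AAV-GFP 1 and AAV-GFP 4 have Hspe1 at 46.1 CPM or more while the other 4 libraries have 37.2 CPM or less.

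The family did not move as a block across the 7 libraries. Of the 45 pairs of the 10 genes, 22 had a Pearson r above 0 on the log2 CPM scale, and the median r was -0.05. The lowest r, -0.79 for Hsph1 and Dnaja1, rested on the 2 treatment-named libraries and was -0.04 without them. The highest r was that of Hspa1a and Hspa1b, at 0.86 (Spearman rho 0.75), with exact permutation p of 0.0187 for r and 0.0663 for rho, and 0.438 and 0.704 after Benjamini-Hochberg adjustment over the 45 pairs. It was 0.77 without AAV-Adipsin 2 and AAV-GFP 2, the libraries farthest from the median of Hspa1a, and the copies share sequence and may share reads. No pair had an adjusted p under 0.438. Hspd1 and Hspe1 are counted among the 45 pairs, with an r below 0, but their pooled r is not read because the libraries formed separate levels of Hspe1, too few in each for a correlation. Between libraries, 6 of the 10 genes had an SD of log2 CPM below the median of all genes tested, 0.20, and Hspa1a, Hspa1b, Hspb1 and Hspe1 had one above it.

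Summed over all 10 genes, the family had 1577, 1548 and 1561 CPM in AAV-Adipsin islets, against 1507, 1487, 1596 and 1396 CPM in AAV-GFP islets. AAV-GFP 3 was the highest library, and the AAV-Adipsin libraries lay between it and the other AAV-GFP libraries. The sums averaged 1562 ± 14.4 CPM over the 3 AAV-Adipsin libraries and 1496 ± 82.3 CPM over the 4 AAV-GFP libraries (SD), a log2 difference of 0.06 with an exact two-sided permutation p of 0.229. Hspa8 and Hsp90aa1 make up most of this sum, so it says little of the inducible genes.

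**Figure D3:**
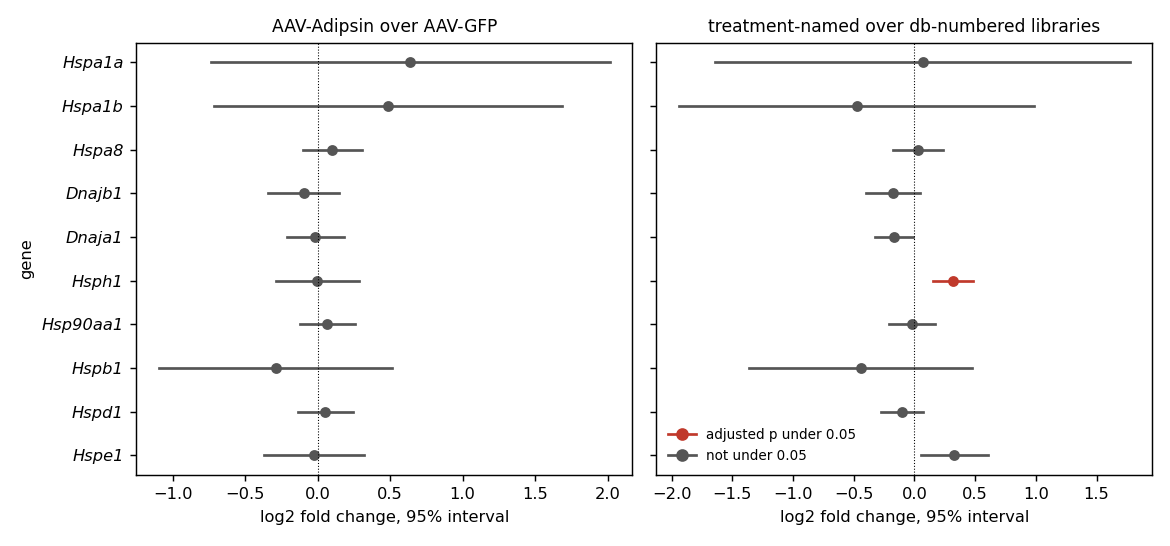
Log2 fold change of each of the 10 genes with its 95% interval, for AAV-Adipsin over AAV-GFP and for treatment-named over db-numbered libraries. Every interval of the vector comparison includes 0, and the intervals of Hspa1a and Hspa1b are the widest, -0.73 to 2.02 and -0.71 to 1.68 for the vectors.

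Treatment-named libraries differed from db-numbered ones in Hsph1, which was higher in the treatment-named ones. The comparison sets AAV-Adipsin 1 and AAV-GFP 1 against the other 5 libraries with a term for the vector. It asks whether a difference that the labels record but do not explain also runs through the chaperones. Hsph1 averaged 154 ± 4.53 CPM in treatment-named libraries (SD, n = 2) and 124 ± 6.56 CPM in db-numbered libraries (SD, n = 5). Its log2 fold change was 0.32 (SE 0.07, 95% interval 0.15 to 0.49), with an adjusted p of 0.0348 by edgeR's quasi-likelihood test with Benjamini-Hochberg adjustment. The difference was 0.39 within AAV-Adipsin and 0.26 within AAV-GFP on the log2 CPM scale. Over all genes, 9.79% passed this test, 4.22% as higher and 5.57% as lower, so 1 gene of 10 is near the share of all genes. Leaving out any library other than AAV-GFP 4 ended the Hsph1 call, with adjusted p from 0.0523 without AAV-GFP 2 to 0.359 without AAV-Adipsin 1.

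The 9 other genes did not pass in this comparison. Hspe1 averaged 48.4 ± 3.36 CPM in treatment-named libraries (SD, n = 2) and 38.8 ± 4.92 CPM in db-numbered ones (SD, n = 5), with a log2 fold change of 0.33 (SE 0.12) and an adjusted p of 0.123 by edgeR. Its db-numbered exception was AAV-GFP 4, at 47.6 CPM, and without that library the log2 fold change was 0.40 with an adjusted p of 0.00191 by edgeR, the lowest of its alternatives, which reached up to 0.659. Without AAV-GFP 4, however, 26.6% of all genes passed, so the pass of Hspe1 there is no result about Hspe1. Dnaja1 averaged 80.4 ± 2.36 CPM in treatment-named libraries (SD, n = 2) and 90.3 ± 3.25 CPM in db-numbered ones (SD, n = 5), with a log2 fold change of -0.17 (SE 0.07) and an adjusted p of 0.149 by edgeR. Dnajb1 averaged 37.8 ± 0.330 CPM in treatment-named libraries (SD, n = 2) and 43.1 ± 4.14 CPM in db-numbered ones (SD, n = 5), with an adjusted p of 0.266 by edgeR. The 2 styles did not overlap for 3 of the 10 genes, Hsph1 being higher and Dnajb1 and Dnaja1 lower in treatment-named libraries. They did not overlap for 37.6% of all genes either, so 3 of 10 is near the share of all genes. For the remaining genes the log2 fold changes were -0.48 for Hspa1b, -0.44 for Hspb1, -0.10 for Hspd1, -0.02 for Hsp90aa1, 0.03 for Hspa8 and 0.07 for Hspa1a, with adjusted p from 0.421 to 0.961 by edgeR.

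Other chaperones and their regulators, in 9 lists of 117 genes with 112 tested, were compared between the vectors in the same fit. By edgeR with Benjamini-Hochberg adjustment none of the 112 passed, and none had an unadjusted p under 0.05, against 1.16% of all genes. Median log2 fold changes of the lists ran from -0.06 for heat shock factors and their regulators to 0.06 for small heat shock proteins, beside -0.01 over all genes tested and 0.03 over the 10 genes described above. Among heat shock factors and regulators, of which Hsf5 did not pass the filter, the smallest p values belonged to Hsf4 (log2 fold change -0.20, SE 0.17), a factor known from the lens, and to Hsbp1 (-0.10, SE 0.09), which binds heat shock factor 1. Among nucleotide exchange factors, which release ADP from HSP70, Bag1 was at -0.15 (SE 0.19) and Bag5 at 0.05 (SE 0.07) on the log2 fold scale. Of the J-domain proteins, Dnajc18 was at -0.10 (SE 0.07) and Dnajb6, a suppressor of aggregation, at -0.08 (SE 0.07). Ahsa2, related to the activator of the HSP90 ATPase, had a log2 fold change of -0.14 (SE 0.15).

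Chaperones of other compartments gave values of the same size for AAV-Adipsin over AAV-GFP. In the mitochondrial list Dnajc19, part of the motor that draws proteins into the matrix, had a log2 fold change of 0.10 (SE 0.09). Cct3, a subunit of the cytosolic chaperonin that folds actin and tubulin, had a log2 fold change of 0.12 (SE 0.08). Of the 17 ER chaperones, 13 had an estimate above 0, beside 46.2% of all genes tested, 5 of 19 J-domain co-chaperones and 17 of 22 immediate early genes. The median of the ER chaperones was 0.02 on the log2 fold scale. Their gene with the smallest p was Dnajb9, a co-chaperone of BiP induced by the unfolded protein response. It had a log2 fold change of -0.13 (SE 0.08, unadjusted p = 0.119 by edgeR). Small heat shock proteins had 5 of 9 genes tested, Cryaa, Hspb2, Hspb3 and Hspb9 being below the filter, and Hspb8, the partner of Bag3 in the removal of aggregates, had a log2 fold change of 0.12 (SE 0.10). Immediate early genes, which respond within minutes to handling and stimulation, had 22 of 22 genes tested, 0 past the threshold and a median log2 fold change of 0.09. Their summed level was 631 to 880 CPM in AAV-Adipsin islets and 651 to 929 CPM in AAV-GFP islets.

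Between the styles of description, 11 of the 112 other chaperone genes passed the test, 3 higher and 8 lower in treatment-named libraries. That is 9.82% of them, next to 9.79% of all genes tested. Hsf1, the factor that drives the heat shock response, averaged 39.6 ± 0.135 CPM in treatment-named libraries (SD, n = 2) and 30.3 ± 2.85 CPM in db-numbered ones (SD, n = 5), with a log2 fold change of 0.39 and an adjusted p of 0.0468 by edgeR. Bag3, which links HSP70 to small heat shock proteins and is itself induced by heat shock factor 1, averaged 62.3 ± 5.93 CPM in treatment-named libraries (SD, n = 2) and 94.5 ± 6.40 CPM in db-numbered ones (SD, n = 5), with a log2 fold change of -0.60 and an adjusted p of 0.0125 by edgeR. The other genes higher in treatment-named libraries were Dnajb2, at a log2 fold change of 0.26, and Dnajc24, at 0.42. Lower in them were Dnajb12 (-0.38), Bag1 (-0.50), Hspb6 (-0.42) and Grpel2 (-0.38), the last a nucleotide exchange factor of mitochondrial HSP70.

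The ER chaperones that passed, 3 of 17, were all lower in treatment-named libraries, as were 5.57% of all genes. Calr, the calcium-binding lectin calreticulin, averaged 539 ± 11.1 CPM in treatment-named libraries (SD, n = 2) and 704 ± 33.5 CPM in db-numbered ones (SD, n = 5), with a log2 fold change of -0.39. Pdia3, a disulfide isomerase that works with calreticulin, had a log2 fold change of -0.31, and Dnajb11, a co-chaperone of BiP, of -0.29. The whole ER list of 17 genes had a median log2 fold change of -0.15, beside -0.01 over all genes, and its summed level was 8641 to 8663 CPM in treatment-named libraries and 9751 to 10167 CPM in db-numbered ones. Immediate early genes had 3 of 22 past the threshold, beside 9.79% of all genes, all lower in treatment-named libraries, namely Fosl2 at a log2 fold change of -0.68, Junb at -0.97 and Ier3 at -1.14. Their summed level was 631 and 651 CPM in the treatment-named libraries and 732 to 929 CPM in the db-numbered ones. Markers of some other cell types lay on the same side. Estimates were below 0 for all 12 acinar markers tested (median log2 fold change -1.14), all 10 macrophage markers (-0.67) and all 10 stellate cell and fibroblast markers (-0.55). The same held for all but 1 of 8 duct markers (-0.73) and all 3 delta cell markers (-0.20). Of these only Msr1, a macrophage gene, passed the test. Other lists were mixed, with estimates above 0 for 2 of 8 endothelial markers (-0.14), 3 of 5 alpha cell markers (0.04) and 5 of 8 beta cell markers (0.08). Ppy, the marker of pancreatic polypeptide cells, was at 0.42, and 2 beta cell markers passed as higher. Over all genes tested, 49.2% had an estimate above 0. Summed CPM overlapped between the styles for acinar, macrophage and stellate markers, whereas duct markers summed to 1748 to 1840 CPM in treatment-named libraries and 1872 to 2785 CPM in db-numbered ones. The part of immediate early genes and of other cell types in the levels of the chaperones was not tested.

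**Figure D4:**
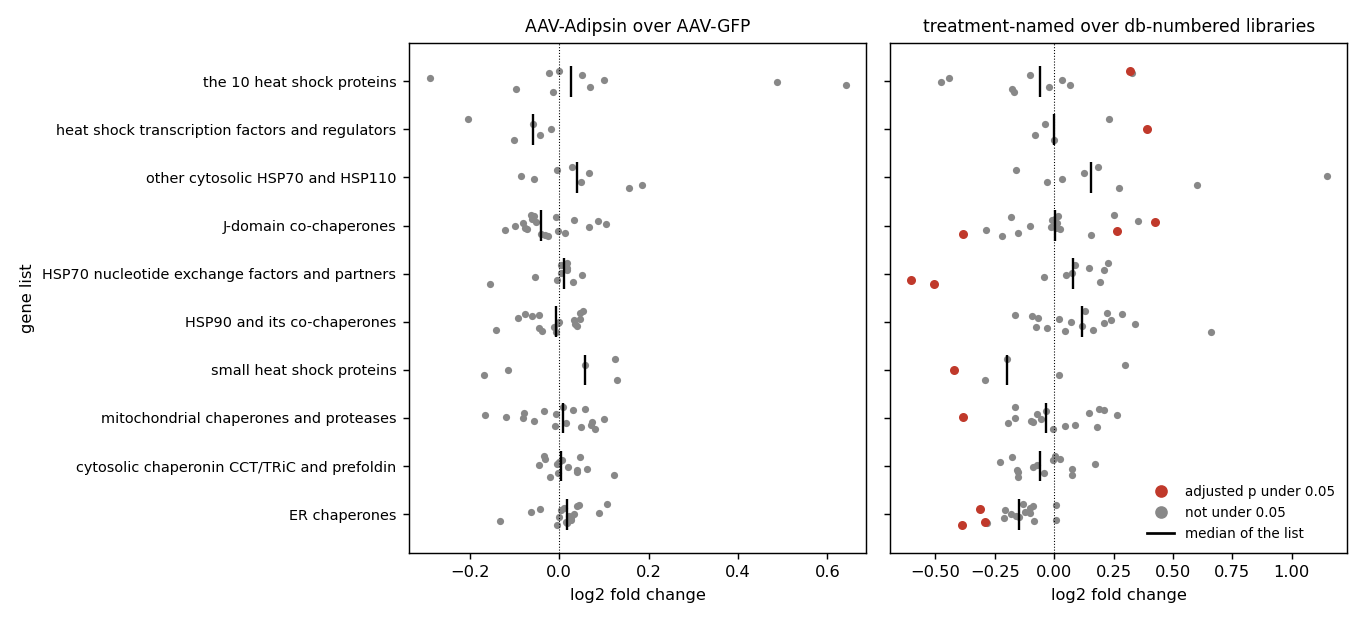
Log2 fold change of each tested gene of the chaperone lists, with the median of each list, for AAV-Adipsin over AAV-GFP and for treatment-named over db-numbered libraries, and red points for genes with an adjusted p under 0.05. No point is red for the vectors, whereas Hsph1 and 11 of the 112 other genes are red for the styles.

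Genes were also ranked over the 7 libraries by Pearson r to the mean of the 10 standardised log2 CPM values. The ranking covered 10191 genes with a mean log2 CPM of at least 3. The 10 genes did not move together (median pairwise r -0.05), so this mean does not stand for each of them. Highest outside the lists were Lad1 and Clcn7 (r 0.96 each), Ddx27 (0.94), Bop1 (0.92), Actn1 (0.91), and Lpin3, Tmem214 and Mettl13 (0.90 each). The r is a description over 7 libraries that share depth and composition. It exceeded 0.9 for 9 genes, and how many would do so by chance was not computed. Clcn7 encodes a lysosomal chloride transporter, Ddx27 and Bop1 encode factors of ribosome assembly, and Actn1 encodes an actin crosslinker. The mean of the family was highest in AAV-GFP 3 and AAV-Adipsin 2, the libraries with the highest summed acinar markers. It was lowest in AAV-GFP 2, whose acinar sum was 9439 CPM, and not in AAV-GFP 4, which had the lowest acinar sum, 2753 CPM. The part of acinar cells in this likeness was not tested.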

How the data were processed

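Messenger RNA was sequenced from islets of 7 db/db mice, and the authors deposited a single table of whole-number counts per gene. Alignment was with STAR to mm10 (GRCm38), per the submitters' processing notes. How reads were counted, with which strand setting and against which annotation, is not given in the sources used here. The libraries came from a stranded mRNA kit, per the labels' protocols. Of 51912 identifiers, 51719 matched GENCODE mouse release 21, and 22479 had no count in any library.

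Counts were tested in R 4.3.3 with edgeR 4.0.16 (filterByExpr by group, TMM scaling, robust quasi-likelihood F test, two-sided) across 16504 genes, with Benjamini-Hochberg adjustment over all of them and a threshold of 0.05. SE and intervals come from the F statistic. CPM and RPKM use TMM-scaled totals, RPKM with the union of annotated exons, and log2 CPM a prior count of 2. Single values were compared by exact permutation over 35 divisions. The scripts were tested on simulated data. A count of 3, the floor for a count of 0, equal 0.0682 to 0.101 CPM by library total. Intervals on counts cover counting error only.

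The 10 genes and the lists were chosen with earlier results of these data known. The genes named are all 10, up to 3 per list with the smallest p in each comparison, and the 8 most like the mean of the 10 genes in pattern. Alternatives were other scalings and filters, DESeq2 1.42.0, voom in limma 3.58.1, quasi-likelihood without robust estimation, description style as a term, no term for the vector, the replicate number as a block, and leaving out libraries. Summing Hspa1a and Hspa1b into 1 gene was added after the data were seen. Upstream sequences are from RefSeq (GRCm38.p6).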

Additional observations from a re-analysis of the deposited data

How the results depend on the processing

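Between the vectors, none of the 10 genes passed in any of the 18 alternatives in which it was tested. These include DESeq2 1.42.0, limma-voom, a filter of at least 10 CPM in 3 libraries, which left 7 of the 10 without Hspa1a, Hspa1b and Hspb1, and the sum of Hspa1a and Hspa1b as 1 gene (log2 fold change 0.55, SE 0.54). The adjusted p of the single genes never went below 0.894. Over all genes the count of 1 became 0 without a filter, with voom and without both treatment-named libraries, 4 with DESeq2, and 0 to 1 leaving out each library. Small estimates changed sign. Hsph1 was 0.0053 with size factors and with DESeq2, 0.0242 by library totals and 0.0105 under that filter. Dnaja1 was 0.0150 and Hspe1 0.0026 by library totals, and Dnaja1 was 0.000704 with a style term. Deviations of same-numbered libraries correlated at 0.66, -0.01 and 0.0071 for numbers 1, 2 and 3. The 0.66 belongs to the treatment-named pair, where number and style cannot be told apart, and the other numbers did not pair the libraries. With the replicate block Dnaja1 was 0.0267 and Hspe1 0.0348, with 0 of the 10 genes and 1 gene in all past the threshold. In the comparison of styles no replicate block was possible, because the style coincides with replicate number 1. Leaving out each library gave -0.25 to 1.03 for Hspa1a, -0.49 to 0.88 for Hspa1b, -0.14 to 0.10 for Hsph1, -0.0520 to 0.0268 for Dnaja1, -0.68 to 0.0451 for Hspb1, -0.20 to 0.0783 for Hspe1, -0.14 to -0.0096 for Dnajb1, 0.0265 to 0.10 for Hspd1, 0.0294 to 0.10 for Hsp90aa1 and 0.0530 to 0.15 for Hspa8, the values nearest to 0 of the last 4 being those without AAV-GFP 4. It gave log2 differences of -0.36 to 0.79 for summed Hspa1a and Hspa1b, -0.27 to 0.0227 for Hspe1 to Hspd1 and -0.0240 to 0.0507 for Hsp90aa1 to Hsp90ab1. Between the styles, 1616 genes passed, 2528 with DESeq2 and 39 to 4348 leaving out each library, and 0 to 2 of the 10 genes did. Hsp90aa1 was 0.0040 by library totals and 0.0085 under the stricter filter, and Hspa1a -0.0878 with voom and -0.11 without a term for the vector. Leaving out each library gave style log2 fold changes of -1.56 to 1.10 for Hspa1a, -1.79 to 0.38 for Hspa1b and -0.0106 to 0.0729 for Hspa8. Pairs of genes with r above 0.8 numbered 1, 4 without both treatment-named libraries and 2 by library totals. The cause of these changes was not tested. With 3 and 4 libraries, permutation cannot reach 0.05, and Hspa1a and Hspa1b rest on 17 to 263 counts.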
